A study of Homo sapiens with 33 samples.

Results

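The comparison described here is that of the anti-PUM2 immunoprecipitate with Input in cells that received the PUM2 oligonucleotide pool. All rows of the PUM2 count table were used, which hold 1599 tiles with 22 barcodes each, or 35178 barcodes in all. A tile is 1 designed stretch of a source RNA, and its barcodes are separate copies of that design. The name of a tile gives the source RNA before the colon and a running number after it. The 6 libraries of the comparison belong to a series of 33 libraries from 5 such pools. Both groups came from HEK293T, a human embryonic kidney line, harvested 48 hours after transfection and fixed for 10 minutes in 0.1% formaldehyde. No protein was overexpressed in either group, so the antibody against PUM2 met the protein that the cells make themselves. The first group held 3 immunoprecipitate libraries and the second 3 Input libraries, lettered A, B and C in each. No control precipitation entered the comparison, and recovery with PUM2 and recovery in any precipitate cannot be told apart. Below, the words with PUM2 stand for the level in the anti-PUM2 immunoprecipitate. The libraries are amplicons of the transfected pool, so markers of the cell line were not measured.

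PUM2 is one of the human Pumilio proteins, which bind single-stranded RNA through a repeated helical domain that reads a short element with a UGUA core. Such elements are often found in the 3′ untranslated regions of mRNAs, where Pumilio proteins are known to promote deadenylation, decay and translational repression. NORAD is a cytoplasmic noncoding RNA with many copies of the element and is known to bind Pumilio proteins and limit their activity. The pool holds tiles of NORAD and of 22 mRNAs.

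Input libraries held 29433144 to 35092298 reads and immunoprecipitate libraries 15986799 to 17727926. Levels are given in CPM, counts scaled to library size and to the TMM factor, which sets the typical tile equal between libraries. The log2 levels of the tested tiles correlated at 0.984 to 0.990 between Input libraries and at 0.791 to 0.805 between immunoprecipitate libraries. The median SD of a tile over 3 libraries was 0.384 on the log2 scale in the immunoprecipitate and 0.117 in Input. The immunoprecipitate libraries thus differed more among themselves than the Input libraries did.

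A minority of tiles was higher in the immunoprecipitate than in Input, and these held a larger share of its reads than of Input reads. Of 1563 tiles tested, edgeR's quasi-likelihood test called 220 higher (14.1%) and 65 lower (4.16%) at a Benjamini-Hochberg adjusted p under 0.05, and 1278 did not pass. Every source RNA had at least 1 tile called higher, and 20 of 23 had at least 1 called lower. The tiles called higher held 7.63% to 7.87% of the reads in the Input libraries and 24.7% to 27.2% in the immunoprecipitates. The tiles called lower went from 3.97% to 4.28% of Input reads down to 1.77% to 2.06%. These shares describe tiles chosen by the same test. Below, the highest tile of an RNA is that with the largest log2 fold change among its eligible tiles. These were called higher and had at least 300 Input reads over the 3 libraries. Tiles that did not pass the test, or that passed with fewer Input reads, could have larger estimates.

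The 2 directions also differed in size. Among tiles called higher, 186 were at least 2-fold, 117 at least 4-fold, 62 at least 8-fold, 25 at least 16-fold and 11 at least 32-fold above Input. Among those called lower, 35 were at least 2-fold and 10 at least 4-fold below it, and 7 of the 65 had no immunoprecipitate read at all. In a further measure with no model, the 3 libraries of 1 group lay wholly above those of the other in 308 tiles for the immunoprecipitate (19.7%) and in 322 tiles for Input (20.6%), or 40.3% in all. The number called lower depended on which group lost a library. Leaving out any 1 Input library gave 12 to 19, and leaving out any 1 immunoprecipitate library gave 113 to 146. Scaling by library size alone, which moved the median log2 fold change of the tested tiles from -0.06 to -0.29, gave 198 higher and 227 lower, so that 46.6% of calls were higher in place of 77.2%.

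NORAD, the only noncoding RNA of the pool, gave the highest share of tiles called higher, 27 of 66 (40.9%, against 14.1% of all tiles), with 1 lower. Its best-read called tile was NORAD:9, at 818, 829 and 900 CPM in Input libraries A, B and C and at 12288, 10735 and 12101 CPM in the immunoprecipitates. The groups lay far apart and the replicates close together, with a log2 fold change of 3.79 ± 0.11 (SE, n = 3 against 3, edgeR adjusted p = 2.17e-07). NORAD:18 was at 395, 379 and 438 CPM in Input and at 6299, 6361 and 6012 CPM with PUM2, a 15.4-fold difference. The adjacent tiles NORAD:33 and NORAD:34 had the largest rises of this RNA, 26.0-fold and 51.2-fold. NORAD:34 was scarcer, at 57.4 to 65.3 CPM in Input, and reached 2820.2, 3779 and 2819 CPM. Tiles called higher made up 25.9% of the Input CPM of NORAD and 73.3% of its immunoprecipitate CPM.

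The mRNAs of RNA-binding and RNA-processing proteins had 41 of 279 tiles called higher (14.7%) and 11 lower, with a median log2 fold change of -0.11 against -0.06 over all tested tiles. The group share was thus near that of all tiles, but its members differed widely. PUM2 mRNA, which encodes the precipitated protein, had 20 of 79 tiles higher (25.3%), whereas EIF1AD, a translation-factor-domain protein, had 2 of 36 (5.56%). PUM2:80, the second tile from the end of the numbering, was at 27.5, 20.4 and 38.5 CPM in Input and at 1168, 1222 and 1281 CPM in the immunoprecipitate. All 3 precipitated libraries lay far above every Input library, and the log2 fold change was 5.41 ± 0.28 (edgeR adjusted p = 3.51e-06). RBM27:68, from the mRNA of a zinc-finger RNA-binding protein, rose from 8.0, 9.73 and 18.6 CPM to 1011, 951 and 895 CPM. Here Input library C stood above A and B, while the immunoprecipitates lay close together (log2 fold change 6.29 ± 0.38). The next tile, RBM27:69, was called higher too, by a larger estimate. It had 250 Input reads in all, so no fold is given for it. SDAD1, a ribosome assembly factor, had smaller rises. Its tile SDAD1:32 was at 125, 105 and 85.7 CPM in Input and at 545, 498 and 441 CPM with PUM2 (4.70-fold). HNRNPA2B1 encodes an abundant nuclear RNA-binding protein, and the highest of its called tiles, HNRNPA2B1:17, was 2.43-fold higher (log2 fold change 1.28 ± 0.17). Both called-higher tiles of EIF1AD, numbers 36 and 37 of 37, had 112 and 39 Input reads in all, so no fold is given for them.

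Among mRNAs of protein kinases, 37 of 356 tiles were called higher (10.4%, against 14.1% of all tested tiles) and 9 lower. TAOK1, a STE20-family kinase, had 20 of 152 higher, led by TAOK1:88 at 53.1, 43.2 and 37.6 CPM in Input and 897, 1267 and 696 CPM in the immunoprecipitate. The groups did not overlap, though library B of the immunoprecipitate stood above A and C (log2 fold change 4.42 ± 0.29). PIM1, a proto-oncogene kinase, had 5 of 31 higher and none lower. PIM1:32 was abundant, with little spread between libraries, at 732, 673 and 659.5 CPM in Input and 3233, 3417 and 3931 CPM with PUM2 (5.12-fold). PRKDC, the catalytic subunit of DNA-dependent protein kinase, had the most tiles and a low share, 12 of 173 (6.94%). Its highest tile, PRKDC:139, rose from 116, 113 and 111 CPM to 516, 549 and 547 CPM, and none of its tiles was called at 8-fold or more.

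The cell cycle mRNAs CKS2 and BUB3 had 13 of 104 tiles called higher (12.5%, against 14.1% of all tested tiles) and 5 lower. CKS2 encodes a small protein that binds cyclin-dependent kinases and has only 7 tiles. CKS2:5 was at 137, 124 and 106 CPM in Input and at 2786, 3157 and 2892 CPM with PUM2, and CKS2:4 at 280.2, 288 and 237 against 3942, 4272 and 3206 CPM. Both lay far above Input in every precipitated library, 24.1-fold and 14.2-fold by the fit. Together they held 9.46% of the Input CPM of this mRNA and 65.7% of its immunoprecipitate CPM. BUB3, a spindle checkpoint protein, had 11 of 97 higher. BUB3:65 stood at 37.5, 34.4 and 37.2 CPM in Input and at 342, 356 and 370.3 CPM with PUM2 (9.79-fold). It was read through only 8 to 10 of its 22 barcodes in each precipitated library.

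The transcription regulators were NR3C1, the glucocorticoid receptor, and IER5, an immediate early response gene. They had 14 of 133 tiles called higher (10.5%, against 14.1% of all tested tiles) and 5 lower. IER5:26 stood out at 418, 382 and 369 CPM in Input against 4727, 5812 and 4349 CPM with PUM2 (12.7-fold, log2 fold change 3.67 ± 0.14), and both tiles beside it were called higher as well. NR3C1:56 rose from 28.2, 27.0 and 46.4 CPM to 259, 206 and 209 CPM. That value came from 7 barcodes in each precipitated library, 1 of which held 31.8% of the reads, and 10 of 19 usable barcodes were higher with PUM2.

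The mRNAs of membrane and ubiquitin proteins had 57 of 398 tiles higher (14.3%, near the 14.1% of all tested tiles) and 19 lower. They gave the single most abundant called tile of the immunoprecipitate, MARCHF6:40, from the mRNA of an endoplasmic reticulum ubiquitin ligase. It rose from 652, 571 and 564 CPM to 12781, 13229 and 12122 CPM (21.3-fold, edgeR adjusted p = 1.23e-07), and its neighbour MARCHF6:41 from 43.1, 34.2 and 55.9 CPM to 2908, 2144 and 2589.9 CPM. The groups of either tile lay far apart. RNF220:33, from another ubiquitin ligase mRNA, was at 105 to 107 CPM in Input and at 2683, 2612 and 2364 CPM with PUM2 (24.0-fold). LNPEP, a membrane aminopeptidase, had 32 of 156 higher, and VAPA, an anchor of membrane contact sites, had 8 of 86. Their highest tiles were scarce in Input. LNPEP:94 rose from 3.21, 3.82 and 11.3 CPM to 512, 808 and 593 CPM. VAPA:87, the last number but 1, rose from 1.54, 1.92 and 5.48 CPM to 277, 484 and 540 CPM. In both, Input library C was highest, so their folds of 104 and 145 are less certain than those of abundant tiles (SE 0.60 and 0.65 on the log2 scale).

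TUBA1B, an alpha-tubulin mRNA, was the only source RNA with more tiles called lower (4) than higher (1) of its 20. Of the 4, TUBA1B:6 and TUBA1B:7 were scarce in Input and had no precipitated read. Both calls were lost without any 1 Input library (edgeR adjusted p = 0.0570 to 0.148). The tile called higher, TUBA1B:20, is the last of the numbering and was at 223, 214 and 251 CPM in Input and at 320, 445 and 448 CPM with PUM2. The rise was small (log2 fold change 0.82 ± 0.22, edgeR adjusted p = 0.0344). Its call was lost without any 1 Input library and without immunoprecipitate library B (adjusted p = 0.0530 to 0.172), and kept without A or C. It was also lost by library size alone (0.0865), without the most-read barcode of each tile (0.0808) and with the column letter as a replicate block (0.0668). The remaining 5 mRNAs of the pool, described as a group, had 30 of 207 tiles higher (14.5%, near the 14.1% of all tested tiles) and 11 lower. Their highest tiles were 2.09-fold to 25.4-fold above Input.

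When the reads of all tiles of a source RNA were summed, 2 RNAs stood apart. NORAD as a whole was at 28888, 28428 and 27520.1 CPM in Input and at 79437, 82760.0 and 72013 CPM with PUM2 (2.76-fold, log2 fold change 1.47 ± 0.05, edgeR adjusted p = 3.22e-07). CKS2 was at 3997, 4163 and 4224 CPM in Input and at 9839, 10825 and 10180.1 CPM with PUM2 (2.49-fold, 1.32 ± 0.04, adjusted p = 1.66e-07). For both RNAs the groups were well separated. In all 16 of 23 totals were called higher (69.6%) and 1 lower (4.35%), but the other 14 rises were at most 1.33-fold. Examples were LNPEP at 1.33-fold, PUM2 at 1.28-fold, MARCHF6 at 1.26-fold and IER5 at 1.25-fold. The total of PRKDC was level (log2 fold change -0.003 ± 0.02, adjusted p = 0.885), and that of TUBA1B was called lower by a small amount (-0.07 ± 0.02, adjusted p = 0.0197). These small rises depended on the scaling. By library size alone 6 totals were higher and 11 lower, with NORAD at 1.23 and CKS2 at 1.08 on the log2 scale, LNPEP at 0.17 and PUM2 at 0.12. The call of TUBA1B was lost without any 1 immunoprecipitate library or without Input library B (adjusted p = 0.0543 to 0.187), and without the most-read barcode of each tile (0.509).

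The barcodes show how many separate copies of a tile were recovered. In the immunoprecipitates 51.5%, 49.1% and 46.8% of barcodes had no read in libraries A, B and C, against 9.40%, 9.16% and 9.30% in Input. The groups were far apart, though 3 against 3 libraries cannot reach an exact permutation p below 0.10, which was the p found for this difference (two-sided). The gap was as large at equal depth: with every library thinned to 15986799 reads the difference was 39.5 percentage points, against 39.9 before. Few barcodes lay in between. Only 1.08% to 2.10% of barcodes in a precipitated library had 1 to 9 reads, and those that were read had medians of 571 to 665 reads.

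The missing barcodes were only partly the same ones in the 3 precipitated libraries. Of 30438 barcodes read in all Input libraries, 33.1% were read in all 3 immunoprecipitates, 24.6% in 2, 23.4% in 1 and 19% in none. Tiles called higher had a median of 16 barcodes read in each precipitated library, tiles not called had 10 to 12, and tiles called lower had 7 to 9. The tiles are chosen here by their reads, so these medians and the barcode shares that follow describe them and are no test. Barcodes were also grouped by their mean reads per Input library. At a mean of 300 to 1000, a precipitated library held a read for 82.9% in tiles called higher, 49.1% in tiles not called and 34.7% in tiles called lower. In tiles not called this share rose with the Input level, from 26.3% at a mean of 100 to 300 reads to 98.5% at 3000 or more. Within the 220 tiles called higher, 84.6% of usable barcodes (at least 30 reads over both groups) were higher with PUM2, against 37.6% in tiles not called. All usable barcodes were higher in 52 tiles, 50% or fewer in 4, and in 2 tiles a single barcode held over 50% of the precipitated reads.

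Recovered tiles tended to sit side by side. The 220 tiles called higher formed 121 runs of consecutive numbers, of which 54 were single tiles, 47 pairs, 11 of length 3, 6 of length 4 and 3 of length 5. Of 380 tested tiles beside a tile called higher, 43.7% were called higher themselves, against 14.1% of all. Beside tiles called lower, 8.13% were called lower, against 4.16% of all. The log2 fold changes of adjacent numbers had a Pearson correlation of 0.33 over 1522 pairs, and those 2 numbers apart one of 0.06 over 1488 pairs. This is a description across tiles of 1 set of libraries. Whether adjacent designs overlap in sequence was not examined.

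Changes between some neighbours were abrupt. Of 33 tile numbers next to the highest tiles of the 17 RNAs described here, 17 were called higher, 14 were not called and 2 were not tested. Of all tested tiles, 14.1% were called higher. A neighbour that was not called was not always level. TAOK1:87 and RNF220:32 were at 1.95 ± 0.59 and 1.52 ± 1.13 on the log2 scale. MARCHF6:40 and :41 were followed by MARCHF6:42 at 1.5 ± 0.61 (adjusted p = 0.144). NORAD:34 was followed by NORAD:35 at 0.20 ± 0.46, and CKS2:5 by CKS2:6 at 0.40 ± 0.24. PIM1:32 and PIM1:33 rose by 2.36 and 2.18 on the log2 scale, while PIM1:31 was at -0.34 ± 0.12. PRKDC:138 was at 0.02 ± 0.19, next to PRKDC:139 and PRKDC:140 at 2.24 and 1.78.

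Longer runs were seen in several RNAs. In PUM2 mRNA, tiles 58 to 62 were all called higher, by 2.42 to 2.91 on the log2 scale. PUM2:59, the most abundant of them, was at 425, 397 and 380 CPM in Input and at 3219, 3298 and 2491 CPM with PUM2. The calls of PUM2:61 and PUM2:62 were lost without the most-read barcode of each tile (adjusted p up to 0.0573). In SDAD1, tiles 31 to 35 were higher by 1.65 to 2.23, with SDAD1:34 rising from 362, 338 and 360.0 CPM to 1373, 1597 and 1142 CPM. NORAD tiles 31 to 34 rose by 2.01 to 5.68, and LNPEP tiles 94 to 97 by 0.95 to 6.70. The steps within the last 2 runs were large: LNPEP:96 was only 1.93-fold higher, between LNPEP:95 at 26.8-fold and LNPEP:97 at 5.79-fold.

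In the mRNAs the tiles called higher lay mostly at the high end of the numbering. Of the mRNA tiles tested, 23 of 497 (4.63%) were called higher in the low section of each RNA's numbers, 63 of 492 (12.8%) in the middle section and 107 of 508 (21.1%) in the high section, with each numbering cut into 3 sections of equal length. Those at least 8-fold higher numbered 4 of 497, 12 of 492 and 37 of 508, against 62 of all 1563 tested tiles. The share was larger in the high than in the low section in 19 of 22 mRNAs, equal in HNRNPA2B1 (no tile in either) and smaller in BUB3 and VAPA. PUM2 mRNA went from 1 of 25 to 8 of 27 to 11 of 27, LNPEP from 2 of 52 to 12 of 51 to 18 of 53, and TAOK1 from 1 of 51 to 7 of 49 to 12 of 52. The count in the low section was 14 to 15 with any 1 Input library left out and 35 without library C of the immunoprecipitate, while that in the high section ran from 96 to 124 over the 6 fits that left out 1 library. BUB3 went the other way, with 5 of 31, 5 of 33 and 1 of 33. Tiles called lower showed no such slope, at 4.83%, 3.25% and 4.72%. NORAD had its largest share in the middle, 8 of 22, 14 of 23 and 5 of 21. Which end of the RNA carries the low numbers is not given in the sources used here.

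The Input level changed along the numbering as well, and its part in this slope was not tested. The median Input level of the mRNA tiles was 650.0 CPM in the low section, 341 in the middle and 192 in the high section. Over all tiles, 22.4% were called higher in the lowest of 5 equal groups by Input level (up to 109.9 CPM) and 6.07% in the highest (883 CPM or more). Among the mRNA tiles of the 3 lower groups, which were formed after values were seen, the shares in the high and the low section were 26.9% against 4.35%, 23.6% against 4.55% and 22.3% against 4.17%. In the 2 upper groups they were 7.27% against 5.48% and 8.0% against 4.24%. When barcodes with a read were counted in place of reads, the order turned, with 100 tiles called higher in the low section, 70 in the middle and 55 in the high section. Only 73 of the 220 tiles called higher by reads were called higher by this measure. A tile holds 22 barcodes, of which a median of 21 to 22 were read in the Input libraries and 11 to 12 in the immunoprecipitates. After scaling between libraries, the barcode count called 251 tiles higher over the whole pool. Why its order along the numbering differed from that of reads was not tested.

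Tiles called lower ranged from scarce to abundant in Input. The 6 with the lowest fitted log2 fold change had no read in any precipitated library and are given as bounds against 3 reads over the group, so their order by fit is not an order of measured size. By this bound TUBA1B:6, at 13.8, 23.0 and 16.5 CPM in Input, was at least 8.13 lower on the log2 scale. LNPEP:32, at 7.18, 4.08 and 5.51 CPM, was at least 6.45 lower. Few barcodes carried them in Input, 7 to 9 of 22 for TUBA1B:6 and 3 to 5 for LNPEP:32. The bounds cover counting error of reads and not the loss of whole barcodes. A barcode that was read in a precipitated library had a median of 571 to 665 reads. Of 40 tested tiles with at most 10 barcodes read in every Input library, 8 had no precipitated read, 7 (17.5%) were called lower, against 4.16% of all tested tiles, and 7 (17.5%) were called higher, against 14.1%. The calls of all 6 were lost without any 1 Input library (adjusted p = 0.0570 to 0.182). They were also lost with the column letter as a replicate block (edgeR adjusted p = 0.0509 to 0.137). RBM27:83 was also scarce, at 22.2 ± 4.03 CPM in Input (SD, n = 3), and had 1 precipitated read, in library A, against 2333 Input reads. The 58 tiles called lower that had a read in the immunoprecipitate, RBM27:83 included, had a median log2 fold change of -0.92 and a median Input level of 570.3 CPM. PRKDC:8 was at 192, 183 and 163 CPM in Input and at 44.1, 23.3 and 52.2 CPM with PUM2 (log2 fold change -2.17 ± 0.42). VAPA:78 was at 321, 346 and 332 CPM in Input and at 41.4, 64.9 and 121 CPM with PUM2 (-2.14 ± 0.40). Both had all 22 barcodes read in every Input library but only 1 to 3 (PRKDC:8) and 2 to 7 (VAPA:78) in a precipitated one.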

How the data were processed

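The PUM2 pool was read out in 3 anti-PUM2 immunoprecipitate and 3 Input libraries. The values are the read counts that the authors deposited per tile and barcode, raw per the file headers and the labels. For read assignment, the tool is not given in the sources used here, and the same holds for molecular identifiers. Floors therefore cover counting error only. Library letters in the columns differ from the numbers in the labels. Columns were therefore mapped to groups only, and 0 were unmatched. Libraries sharing a letter did not deviate together (correlations -0.037, 0.014 and -0.017). Separate cultures are not stated, so p-values may reflect technical spread only. Within groups, chi-square per degree of freedom was 71.6 to 666, so no library was a copy of another.

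Counts summed over barcodes were filtered by filterByExpr (1563 of 1599 tiles kept), TMM-scaled and fitted with edgeR 4.0.16 (quasi-likelihood, robust, R 4.3.3). Source RNA totals used the same effective library sizes. The SE is the size of the log2 fold change over the root of F. On simulated counts for this comparison (1563 tiles), 82.0% of 200 tiles changed 4-fold were recovered and 6.82% of calls were false. The simulation drew tile sums with the same spread in both groups and drew no barcodes. In these libraries the immunoprecipitates varied more than Input and lacked more barcodes, so these rates may not hold for them. The alternatives, DESeq2 1.42.0 among them, are in the closing section.

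The members and lists were chosen with earlier results of these data known. Among called tiles with no overlap between groups and at least 300 Input reads, the rule named the highest tile of each source RNA, the 6 of lowest fitted fold change, the 5 of most immunoprecipitate CPM and the 5 longest runs. Tiles of 5 mRNAs, with 1 such run, are given as a group. PRKDC:8, VAPA:78, RBM27:83 and CKS2:4, the sections of the numbering and the groups by Input level were chosen after values were seen. Tile sequences and positions were not used here.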

Additional observations from a re-analysis of the deposited data

How the results depend on the processing

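The number of tiles called higher stayed within 1.5 times of 220 under every alternative run, from 179 to 264 without 1 library, while the number called lower did not. The tiles themselves changed when barcodes with a read were counted in place of reads. Of 251 then called higher, 73 were among the 220, and 20 of the 65 lower calls were shared. Barcodes have a ceiling of 22 per tile, so this count differs in kind from reads. In place of 65, the number called lower was 227 by library size only, 169 by DESeq2, 395 when barcodes with a read were counted in place of reads, 35 at a log2 fold change of at least 1, and 12 to 146 without 1 library. DESeq2 called 291 higher, and all 285 calls of edgeR were among its calls. Calls in opposite directions were found only with barcodes counted, for 4 tiles. RLE factors, no filter and a mean count of at least 50 gave 219 to 225 higher and 60 to 64 lower.

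The 16 totals called higher became 6 by library size only and 2 at a log2 fold change of at least 1, and ran from 12 to 20 without 1 library. The 1 total called lower became 2 with RLE factors, 11 by library size only, 2 by DESeq2, 0 without the barcode of most reads, 0 at a log2 fold change of at least 1, and 0 to 1 without 1 library. By library size only the totals of TAOK1 (-0.026), VAPA (-0.168), HNRNPA2B1 (-0.162), RBM27 (-0.167), NR3C1 (-0.205) and BUB3 (-0.164) turned negative. That of PRKDC, near 0, turned positive with RLE factors and DESeq2 (0.016 in both), without the barcode of most reads (0.042) and without 1 library in 4 of 6 cases (-0.007 to 0.023 over the 6). With barcodes counted, NR3C1:56 (-0.396) and PUM2:61 (-0.838) turned negative. A further 14 of the tiles named here kept their sign but lost their call. Among them were the highest tiles of TAOK1, BUB3, PRKDC, SDAD1, HNRNPA2B1 and TUBA1B. The highest tiles of VAPA, LNPEP, RBM27, MARCHF6, NORAD, PUM2, CKS2, RNF220, IER5 and PIM1 kept their calls. The cause of these changes was not tested, except that library size omits the shift that TMM removes.

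Of the mRNA tiles in the low section of the numbering, DESeq2 called 42 higher and a log2 fold change of at least 1 left 11, in place of 23. With the column letter as a replicate block, 215 tiles were higher and 79 lower, and 2 totals were lower. It kept 207 of the 220 higher calls and 48 of the 65 lower calls. Whether the letters pair the samples is not known, since correlations over 3 libraries cannot decide it. The difference in barcodes with no read was 38.7 to 41.0 points without 1 library. The 10 tiles of most reads held 8.45% ± 0.84 of reads in the immunoprecipitate and 7.45% ± 0.84 in Input (SD, n = 3, exact permutation p = 0.30, two-sided, smallest possible 0.10). The difference was 1.00 point, or 2.23 points for 50 tiles. Depth limits the tiles with few Input reads most: 36 tiles were not tested, and folds at under 300 Input reads are not given.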

Other observations

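Of the 36 tiles that were too scarce to be tested, 16 had a read in an immunoprecipitate library, and 15 of these had a higher mean CPM there than in Input. VAPA:88, the last tile of its RNA and next to VAPA:87, had 840 immunoprecipitate reads against 5 Input reads. These came from 0, 2 and 3 barcodes in immunoprecipitate libraries A, B and C, at 0, 23.4 and 30.1 CPM.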
